A study of Zea mays with 12 samples.

Results

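Development of wild-type maize seeds was followed at 14 and 7 days after pollination (DAP) in the 6 wild-type libraries of a series of 12, chosen by the genotype and stage that the labels give. There were 3 libraries of wild-type seeds at 14 DAP and 3 at 7 DAP, and the other 6 libraries came from zmmsh7-2 seeds, labelled as an MSH7 knockout, at the same stages. The sample titles mark the mutant as made by CRISPR. The labels name no treatment, no inbred line and no number of ears or seeds behind a library. Total counts ranged from 20066289 to 21932590 at 14 DAP and from 19741682 to 20865544 at 7 DAP.

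A maize seed holds an embryo and a large endosperm inside maternal pericarp. In the first days after pollination the endosperm forms cells, which divide and take on their fates, and the maternal tissues still make up much of the seed. The endosperm then fills with starch and with zeins, the storage proteins of the grain, while the embryo forms its axis and its oil-storing scutellum. Each library is RNA of whole seeds, so fewer cells of a type and less RNA per cell cannot be told apart. No name or product could be matched to the nuclear gene models, so the tissue could not be checked against its marker genes, and storage protein and starch genes are not described by name. The named genes are those of the plastid and mitochondrial genomes and the microRNA precursors.

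The first question was how far the transcriptome moved between the stages. Wild-type seeds at 14 DAP differed from those at 7 DAP in most expressed genes, with 9953 genes higher and 10010 lower at 14 DAP among 24443 tested. These called genes were 81.7% of those tested, with 40.7% higher and 41.0% lower (edgeR quasi-likelihood test, Benjamini-Hochberg adjusted p below 0.05). The even split rests on TMM scaling, which centres the median log2 fold change of all tested genes at 0.00. Scaled by library totals alone, that median was −0.30 and 7276 genes were higher against 12970 lower. Directions below are relative to the TMM centre. Each stage has its own deposited table, so stage and any difference in how the tables were made cannot be told apart.

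Many of the changes were modest, since 11469 called genes, or 57.5%, changed by less than 2-fold. More than 2-fold, 4264 genes were higher and 4230 lower, 17.4% and 17.3% of those tested. With TMM scaling the balance tipped towards rising genes as the size of the change grew. By library totals 3058 genes were higher and 6052 lower beyond 2-fold, and changes of more than 8-fold were not counted with that scaling. A change of more than 8-fold was called upwards for 853 genes and downwards for 572, which were 3.49% and 2.34% of those tested. At 64-fold the counts were 196 (0.802%) upwards and 66 (0.27%) downwards, and at 256-fold 89 (0.364%) and 16 (0.0655%). The fitted size for a gene with no count at a stage depends on the prior count of edgeR and is no bound. Genes that scarcely moved were also found. For 1891 genes, 7.74% of those tested, the 95% interval of the fold change lay within 1.2-fold in either direction.

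**Figure D1:**
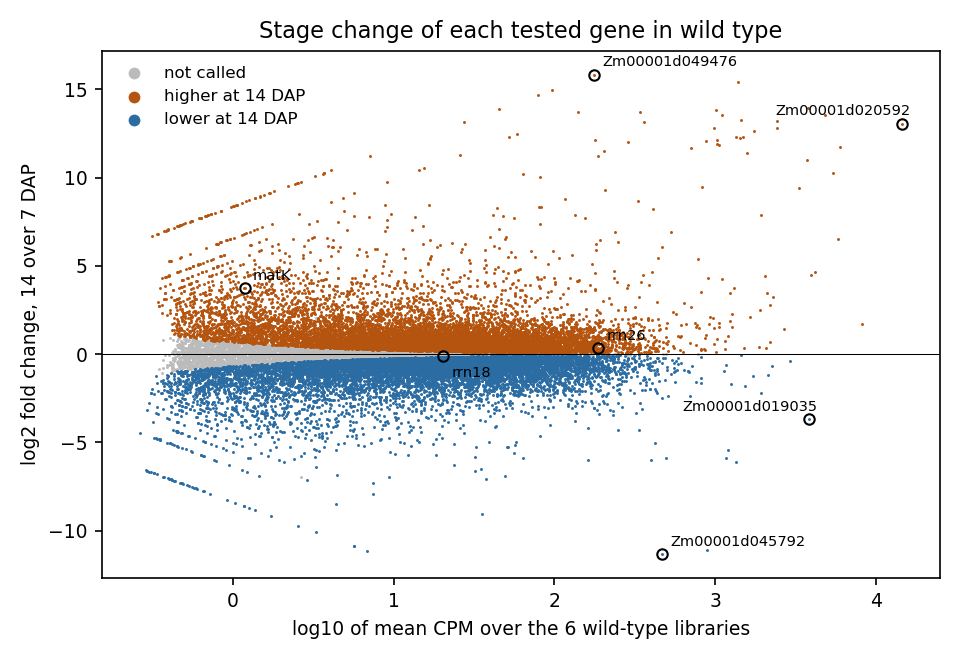
Log2 fold change of 14 over 7 DAP (vertical axis) against log10 of the mean CPM over the 6 wild-type libraries (horizontal axis), 1 point per tested gene, coloured by the call. The rising genes include the most abundant transcript, Zm00001d020592, while few abundant genes fell by more than 8-fold.

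The large changes were spread unevenly over abundance. Tested genes were ranked by mean CPM over the 6 libraries and divided into 4 groups of near-equal size. The least abundant group held 443 genes higher and 351 lower by more than 8-fold at 14 DAP, and the group next in abundance held 149 and 118. The third held 96 and 53, and the most abundant, above 40.6 CPM, held 165 and 50. Scarce genes have noisier estimates. Among 2063 genes with a mean of at least 100 CPM, 89 were higher and 25 lower by more than 8-fold.

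Counts were concentrated in fewer abundant transcripts at 14 DAP, although the number of genes with at least 1 count was not lower there, at 29606 to 29787 at 14 DAP and 29231 to 29368 at 7 DAP. The 20 most abundant transcripts held 14.5%, 14.5% and 14.0% of the counts of the 3 libraries at 14 DAP, against 5.65%, 5.50% and 5.46% at 7 DAP. The stages did not overlap, with means of 14.3% ± 0.256 at 14 DAP and 5.53% ± 0.101 at 7 DAP (SD, n = 3 each), and a two-sided exact permutation test gave p = 0.1, the lowest value open to 3 libraries against 3. The single most abundant transcript took 2.60% ± 0.0741 of the counts at 14 DAP and 0.787% ± 0.0279 at 7 DAP. The number of genes that together held 50% of the counts was 1199 ± 12.2 at 14 DAP and 2043 ± 10.8 at 7 DAP (SD, n = 3 each). The effective number of transcripts, the exponential of the Shannon entropy of the counts, was 4973 ± 54.0 at 14 DAP and 8624 ± 41.9 at 7 DAP. Each of these measures differed between the stages by many times its SD, with p = 0.1 in the same exact test.

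**Figure D2:**
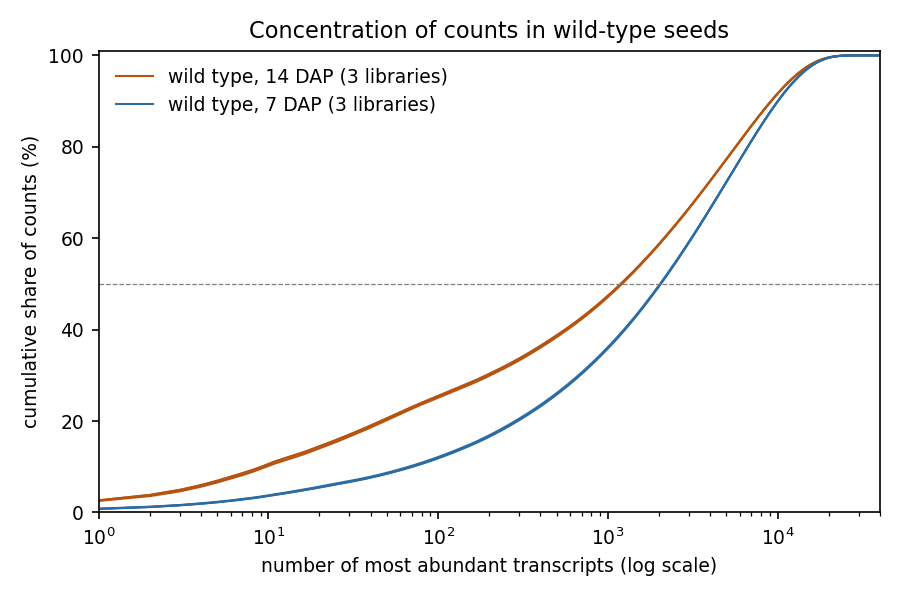
Cumulative share of counts (percent, vertical axis) held by the most abundant transcripts of each wild-type library, against their number on a log scale. The 3 libraries at 14 DAP lie together above the 3 at 7 DAP, and cross 50% after about 1199 transcripts against about 2043.

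The list of the 100 most abundant transcripts changed in most of its members, though many that left it stayed abundant. Only 35 transcripts stood among the 100 most abundant at 14 DAP and again at 7 DAP. By median, the 100 of 14 DAP ranked 235 at 7 DAP, and the 100 of 7 DAP ranked 184 at 14 DAP. The 100 of 14 DAP held 25.35% ± 0.228 of the counts at 14 DAP and 5.87% ± 0.0154 at 7 DAP (SD, n = 3 each). Of these, 91 were higher, 8 lower and 1 not called. The rise exceeded 8-fold in 44 and 256-fold in 26, and 27 stood below 10 CPM at 7 DAP. The 100 most abundant at 7 DAP kept more of their level, with 7.79% ± 0.0999 of the counts at 14 DAP and 11.96% ± 0.145 at 7 DAP. Of these 71 were lower, 28 higher and 1 not called, and 12 fell by more than 8-fold. Only 2 of the 100 stood below 10 CPM at 14 DAP. These lists were chosen by the values described, so the counts are a description and not a test.

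The genes that changed by more than 8-fold carried much of this shift. Those called higher held 20.1% ± 0.231 of the counts at 14 DAP and 0.473% ± 0.0028 at 7 DAP, and those called lower held 0.164% ± 0.0055 at 14 DAP and 3.73% ± 0.0944 at 7 DAP (SD, n = 3 each). These sets too were chosen by the change they describe.

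Few genes were silent at one stage and well expressed at the other. At least 1 unscaled CPM in all 3 libraries was seen for 21076 genes at 14 DAP and for 21509 at 7 DAP, with 19957 common to both. Of the genes at that level at 14 DAP, 680 were below 1 CPM in every library at 7 DAP, and 958 showed the opposite pattern. Unscaled CPM is lower at 14 DAP and higher at 7 DAP than TMM-scaled CPM (mean TMM factors 0.900 and 1.111). The balance of these counts between the stages is therefore not read. In TMM-scaled CPM, 51 genes with no count at all in the 7 DAP libraries averaged at least 1 CPM at 14 DAP and 6 at least 10 CPM. With none at 14 DAP, 21 genes averaged at least 1 CPM at 7 DAP and 3 at least 10 CPM.

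The 4 nuclear gene models given here are extremes among the tested genes, whose median absolute log2 fold change was 0.683. They were taken by rule, 1 in each direction by log2 fold change and 1 by the change in mean CPM, and what they encode could not be looked up. Because they were chosen by the change they show, their sizes and adjusted p-values are a description and not a test. Zm00001d020592 had 29500, 29330 and 27900 CPM at 14 DAP, against 2.15, 2.758 and 5.196 CPM at 7 DAP. It was the most abundant transcript at 14 DAP, with 2.52% to 2.65% of each library, and ranked 18233 at 7 DAP. The log2 fold change was 13.06 (SE 0.17, edgeR adjusted p = 1.40e-07), with 230 counts in all at 7 DAP.

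Zm00001d049476 had 405.4, 357.6 and 293.1 CPM at 14 DAP and 0 counts in each of the 3 libraries at 7 DAP. Against a floor of 3 counts per library it was at least 2657-fold higher at 14 DAP. It was the most abundant of all genes with no count at 7 DAP, and the next stood at 192.6 CPM at 14 DAP. Zm00001d049476 was taken by a fitted log2 fold change that depends on the prior count. Its bound lies below the ratio of 8546 for Zm00001d020592, so which of them rose more cannot be told. With 0 counts at 7 DAP it passed the filter through the 14 DAP libraries alone, so a call had to be a rise.

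Among falling genes Zm00001d019035 led in CPM, with 591.2, 549.7 and 523.1 CPM at 14 DAP, against 7391, 7009 and 6888 CPM at 7 DAP. It was the most abundant transcript at 7 DAP and ranked 131 at 14 DAP. Its log2 fold change was −3.68 (SE 0.04, edgeR adjusted p = 6.32e-35). Zm00001d045792 had 0.558, 0.333 and 0.164 CPM at 14 DAP, against 935.1, 934.4 and 916.6 CPM at 7 DAP. Its rank was 24571 at 14 DAP and 29 at 7 DAP. The log2 fold change was −11.32 (SE 0.07, edgeR adjusted p = 3.76e-87), and only 20 counts remained at 14 DAP over the 3 libraries, against 63112 at 7 DAP. Its 11, 6 and 3 counts at 14 DAP were too few for the filter on low counts. Zm00001d045792 therefore passed through the 7 DAP libraries, and a call had to be a fall.

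**Figure D3:**
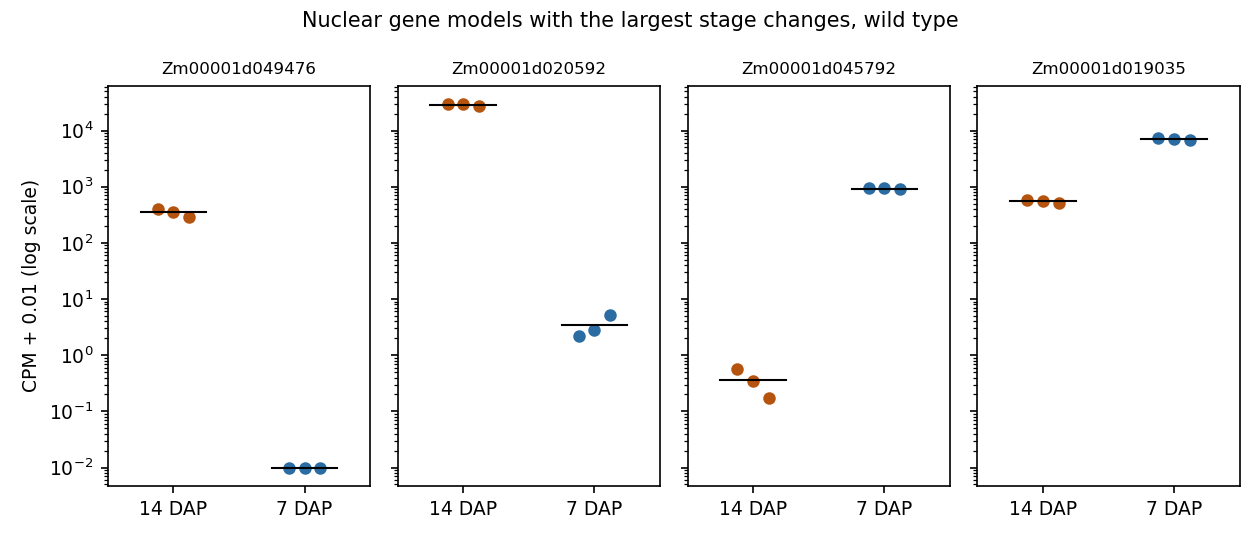
CPM plus 0.01 on a log axis for the 4 nuclear gene models, 1 point per wild-type library with 14 DAP left of 7 DAP and a bar at the stage mean. The libraries of a stage lie close together beside the distance between the stages, and Zm00001d049476 sits at the axis floor of 0 CPM in the 3 libraries at 7 DAP.

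Plastid transcripts were asked about next. Plastids of the endosperm become starch-storing amyloplasts, and their genome encodes ribosomal and transfer RNAs, parts of the plastid ribosome and RNA polymerase, and photosynthetic proteins. Plastid transcripts were scarce at both stages and more frequent at 14 DAP, where the 157 plastid genes together had 102, 72 and 73 counts in the 3 libraries, against 7, 5 and 11 counts at 7 DAP. The stages did not overlap. In CPM the sums were 4.38 ± 0.685 at 14 DAP and 0.339 ± 0.133 at 7 DAP (SD, n = 3 each), and the exact two-sided permutation test gave p = 0.1, its lowest possible value. The ratio was 13.0 (95% counting interval 8.48 to 20.9) and 10.6 with library totals.

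matK (ZemaCp003), the intron maturase gene of the plastid, which lies within the trnK intron, made up about as many of these counts as all the others together. It had 57, 33 and 35 counts at 14 DAP, against 2, 2 and 7 counts at 7 DAP, with no overlap between the stages. The level was 2.21 ± 0.591 CPM at 14 DAP and 0.161 ± 0.125 CPM at 7 DAP (SD, n = 3 each). The log2 fold change was 3.73 (SE 0.40, edgeR adjusted p = 1.79e-13), and 4.55 without replicate 3 of 7 DAP. matK was the only plastid gene to pass the filter on low counts, and it passed through the 14 DAP libraries alone, so a called gene of this kind had to rise.

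The other 156 plastid genes moved in parallel as a sum, with 45, 39 and 38 counts at 14 DAP and 5, 3 and 4 counts at 7 DAP. The ratio without matK was 12.3 (95% counting interval 6.81 to 24.5). The counts were spread over functions. In the plastid gene expression list of 32 genes, matK included, 158 counts fell at 14 DAP and 12 at 7 DAP. The 46 ribosomal and transfer RNA genes had 42 counts at 14 DAP and 7 at 7 DAP, the 12 NAD(P)H dehydrogenase genes 26 and 1, and the 22 photosystem genes 12 and 2. The 15 genes of Rubisco, the cytochrome complex and ATP synthase had 2 counts at 14 DAP and 0 at 7 DAP. In all, 29 plastid genes had at least 1 count at 14 DAP and 8 at 7 DAP.

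Single plastid genes rested on few counts. ndhA (ZemaCp091), a subunit of the plastid NAD(P)H dehydrogenase, had 9, 4 and 7 counts at 14 DAP and 0 in each library at 7 DAP. The ribosomal protein genes rpl2 (ZemaCp109) and rpl16 (ZemaCp060) had 11 and 10 counts at 14 DAP over the 3 libraries, and both had 0 at 7 DAP. ZemaCr119, a plastid ribosomal RNA gene in the reference table, had 6, 8 and 8 counts at 14 DAP and 1, 0 and 0 at 7 DAP. The transfer RNA gene trnK (ZemaCt121), whose intron holds matK, had 0, 7 and 2 counts at 14 DAP and 3, 1 and 0 at 7 DAP, and its stages overlapped. Copies of plastid DNA also lie in the nuclear and mitochondrial genomes, and no source used here says to which copy a shared read was assigned. The 28 mitochondrial identifiers marked as copies of plastid sequence had 15 counts at 14 DAP and 4 at 7 DAP. The labels name total RNA and do not say whether polyadenylated RNA was selected.

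Mitochondrial transcripts did not show a rise of this size. Mitochondria supply the growing seed with energy, and their genome encodes ribosomal RNAs, ribosomal proteins and subunits of the respiratory chain. Of the 208 mitochondrial identifiers, the 206 other than the ribosomal RNAs rrn18 and rrn26 summed to 150, 133 and 160 counts at 14 DAP and 179, 189 and 184 counts at 7 DAP. In CPM this was 7.91 ± 0.728 at 14 DAP and 8.12 ± 0.0796 at 7 DAP (SD, n = 3 each; p = 0.7 in the exact permutation test), a ratio of 0.973 (95% counting interval 0.857 to 1.10). By library totals the ratio was 0.789. Together with the plastid genes the organelle sum without rrn18 and rrn26 was 12.3 ± 0.801 CPM at 14 DAP and 8.46 ± 0.0873 CPM at 7 DAP (SD, n = 3 each; p = 0.1 in the exact permutation test). The difference was 3.83 CPM, and 1.67 CPM by library totals.

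rrn26 (ZeamMr002), the RNA of the large mitochondrial ribosomal subunit, had 209.9, 203.0 and 213.3 CPM at 14 DAP, against 163.5, 162.7 and 167.6 CPM at 7 DAP. Its log2 fold change was 0.34 (edgeR adjusted p = 1.67e-15, SE 0.03), and by library totals it was 0.04 and not called (edgeR adjusted p = 0.259). The small-subunit RNA rrn18 (ZeamMr004) had 20.2, 19.5 and 18.8 CPM at 14 DAP, against 22.3, 18.5 and 23.0 CPM at 7 DAP, and the stages overlapped. Its log2 fold change was −0.12 (SE 0.08, edgeR adjusted p = 0.137). By library totals rrn18 was called lower, at −0.42.

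**Figure D4:**
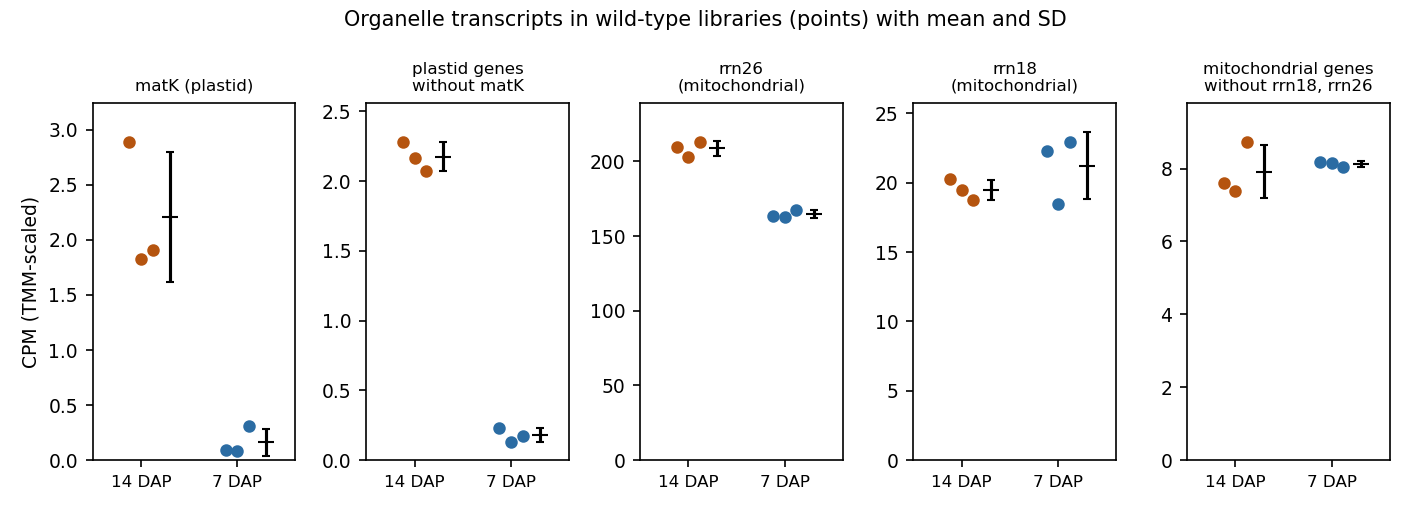
CPM of matK, of the other plastid genes summed, of rrn26, of rrn18 and of the other mitochondrial genes summed, 1 point per wild-type library with 14 DAP left of 7 DAP, and the mean with SD beside them. The plastid panels separate the stages widely, rrn26 by a smaller step, and rrn18 and the mitochondrial sum overlap.

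Over all organelle genes, 9 of 365 passed the filter on low counts. Of these 2 were higher, 0 lower and 7 not called by edgeR at an adjusted p below 0.05, where the unadjusted p puts 1 lower and DESeq2 0, against 40.7% higher and 41.0% lower among all tested genes. Those higher were rrn26 and matK, and matK passed the filter through the 14 DAP libraries alone, so its direction was fixed once called. By library totals the tally was 1 higher and 2 lower, with rrn26 no longer called and rrn18 and orf126-c called lower. With no set of organelle genes large enough to read, the other lists are given by their members. The respiratory chain and the maturation of cytochrome c are covered by 20 genes, of which 2 were tested. cox1 (ZeamMp136), a subunit of cytochrome c oxidase, had 6, 12 and 12 counts at 14 DAP and 10, 11 and 14 at 7 DAP. atp4 (ZeamMp051), a subunit of the ATP synthase, had 6, 7 and 11 counts at 14 DAP and 10, 9 and 15 at 7 DAP. The log2 fold change was 0.06 (SE 0.42) for cox1 and −0.22 (SE 0.44) for atp4, and neither was called.

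Among 10 genes for mitochondrial ribosomal proteins and a maturase the 1 tested, rps2B (ZeamMp157), had a log2 fold change of 0.20 (SE 0.39) and was not called. The 138 mitochondrial reading frames without a known role had 3 members tested, with 0 called by edgeR and 0 by DESeq2, and 1 with an unadjusted edgeR p below 0.05. That one, orf126-c (ZeamMp075), had 22, 19 and 25 counts at 14 DAP and 37, 44 and 37 at 7 DAP. Its stages did not overlap, as was so for 82.2% of tested genes. It missed the threshold narrowly, with a log2 fold change of −0.56 (SE 0.27, edgeR adjusted p = 0.0503). orf101-a (ZeamMp044) and orf105-c (ZeamMp073) had 0.28 (SE 0.47) and 0.52 (SE 0.42). At this depth the intervals of these scarce genes still allow changes of 1.5-fold or more.

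The 154 microRNA precursors had 0 counts in all 6 wild-type libraries, and whether the counting could assign reads to them was not tested. The 1765 identifiers beginning ENSRNA, for which no product could be looked up, were detected more often. Of these, 123 were tested, 45 were higher, 20 lower and 58 not called, with a median log2 fold change of 0.45 beside 0.00 over all tested genes, of which 40.7% were higher and 41.0% lower. Summed, they gave 389.9 ± 17.9 CPM at 14 DAP and 443.8 ± 18.8 CPM at 7 DAP (SD, n = 3 each; p = 0.1 in the exact permutation test). By library totals the difference of the sums was −141.9 CPM. The most abundant identifier had 38.0, 101.2 and 44.5 CPM at 14 DAP, against 127.0, 131.0 and 91.6 CPM at 7 DAP, and its stages overlapped. Without it the sums were 328.7 ± 21.3 CPM at 14 DAP and 327.3 ± 14.1 CPM at 7 DAP (p = 1 in the same exact test), but by library totals the ratio without it was still 0.815, against 0.712 with it.

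Where wild-type development differed from that of the mutant was tested in a fit of all 12 libraries. The stage change was more positive in wild type for 6089 genes (24.0%) and more negative for 5784 (22.8%) of 25344, together 46.8%, and the difference exceeded 2-fold for 2827. Large changes in wild type mostly recurred in the mutant in the same direction. In the mutant itself 39.3% of genes were called higher and 39.6% lower at 14 DAP. Of 931 genes higher by more than 8-fold in wild type, 893 were called higher in the mutant and 3 lower, and of 620 lower by more than 8-fold, 576 were called lower and 2 higher. The genes were chosen by their wild-type values, which favours smaller changes in the mutant, so the sizes are not compared. Among 17375 genes called in both genotypes, 1148 went in opposite directions, and 87 of these by more than 2-fold in each.

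The nuclear gene models shown above were also chosen by their wild-type values, so their values in the mutant are given with no test. The log2 fold change of Zm00001d019035 was −3.66 in wild type and −2.09 in the mutant. At 14 DAP it stood at 571.9 ± 35.0 CPM in wild type and 1800 ± 51.9 CPM in the mutant, and at 7 DAP at 7244 ± 281.7 CPM in wild type and 7687 ± 81.4 CPM in the mutant (SD, n = 3 each). For Zm00001d020592 the log2 fold changes were 13.07 in wild type and 13.30 in the mutant. For matK they were 3.75 in wild type and 3.79 in the mutant, and the difference was not called. With 11 counts at 7 DAP in wild type and 43 in the mutant, this cannot show that the stage changes were equal. The matK levels at 14 DAP were 2.28 ± 0.607 CPM in wild type and 9.11 ± 0.728 CPM in the mutant. At 7 DAP they were 0.164 ± 0.128 CPM in wild type and 0.657 ± 0.310 CPM in the mutant, again with SD over 3 libraries.

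**Figure D5:**
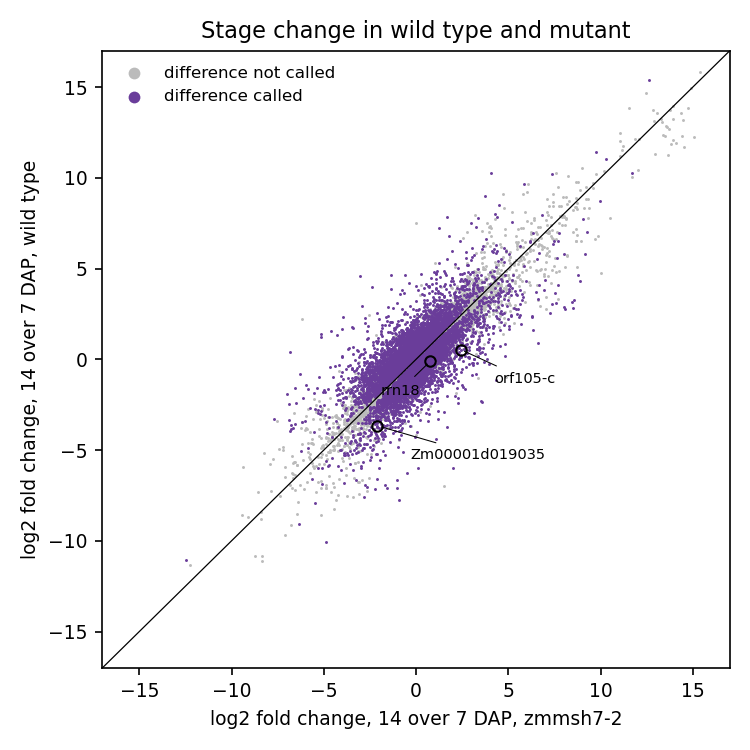
Stage change as log2 fold change of 14 over 7 DAP in wild type (vertical axis) against that in zmmsh7-2 (horizontal axis), 1 point per gene in the fit of 12 libraries, with equal change on the diagonal line. Purple genes have a called difference, which 46.8% of genes do, and the farthest rising genes of wild type lie far up in the mutant as well.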

How the data were processed

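RNA-seq of developing maize seeds was analysed from unnormalised gene counts, which the authors deposited as 1 table per stage. Per the submitters' processing notes, the build was B73 RefGen_v4 and the tools included HISAT2 2.2.1, Trimmomatic 0.39, StringTie 1.3.6, featureCounts 1.6.4 and DESeq2. No source used here states how strand or reads aligning to several places were handled. Both tables list 46430 identifiers, joined here by gene ID. The RefSeq table of Zm-B73-REFERENCE-NAM-5.0 matched 153 microRNA precursors and 365 organelle identifiers to symbols, and 0 of 44146 nuclear models. The 15 planned lists of nuclear genes were therefore not run, and 11 lists were. No sequence or coordinate is given.

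The stages were compared with edgeR 4.0.16 under R 4.3.3 (quasi-likelihood, robust, TMM, default filter by group) on the 6 wild-type libraries. An earlier analysis of these data used 12 libraries, which lets genes pass the filter through the mutant, so that fit is an alternative. The difference from the mutant came from all 12. SEs are |log2 fold change| over the root of the F statistic. Values in CPM are scaled by TMM factors of the fit they come from, while shares of counts use library totals. The presence of at least 1 CPM in all 3 libraries, or less than 1 CPM in each, uses unscaled CPM. Counting intervals are exact at 95%, and they and the floor of 3 counts cover counting error only. Organelle symbols were assigned to lists by name. The members and lists were chosen with earlier results of these data known. Named genes were called genes with a symbol, at least 10 CPM in the higher stage and no overlap between stages, up to 4 called list members at 1 CPM or more, uncalled tested organelle genes, and at most 2 unnamed identifiers in each direction. Genes with few counts are named to account for the lists.

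Replicates differed by more than sampling noise, at chi-square values of 1.69 to 2.38 per degree of freedom, so none was treated as a duplicate. Correlations of log2 CPM were 0.993 to 0.994 within stages and 0.777 to 0.787 between them, and the biological coefficient of variation was 3.30%. Nothing in the labels ties the replicates to different plants, so p-values reflect the spread between libraries, which may be technical. The fits were tested on simulated data in which few genes changed and the composition was otherwise the same in all groups. That test does not cover a shift as wide as that between these stages. Alternatives were RLE factors, library totals, no filter, a stricter filter of 5 CPM in 3 libraries, DESeq2 1.42.0, glmTreat, a replicate block and leaving out each library.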

Additional observations from a re-analysis of the deposited data

Results flagged for a closer look

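A closer look is due for 4 of the 9 organelle genes tested in wild type. Their stage change differed between wild type and mutant in the fit of 12 libraries, as it did for 46.8% of all genes. Their number is near that share of the 9 and is not read as a result about organelle genes. The nuclear gene models, chosen by their wild-type values, are left out here. Each difference is the wild-type log2 fold change minus that of the mutant, with edgeR adjusted p. For rrn26 it was −0.37 (adjusted p = 3.71e-12), with 0.36 in wild type and 0.73 in the mutant. For rrn18 it was −0.88 (adjusted p = 6.05e-13), with −0.11 in wild type and 0.77 in the mutant. orf105-c differed by −1.88 (adjusted p = 0.00149), with 0.54 in wild type and 2.42 in the mutant, and cox1 by −1.78 (adjusted p = 0.0116), with 0.07 in wild type and 1.86 in the mutant. In wild type neither was called. orf105-c rests on 37 counts at 14 DAP and 31 at 7 DAP in wild type, and on 174 and 40 in the mutant. cox1 rests on 30 counts at 14 DAP and 35 at 7 DAP in wild type, and on 65 and 22 in the mutant. These 4 differences were computed with TMM factors only. In the fit of the wild-type libraries, library totals moved the stage change of rrn26 to 0.04 and of rrn18 to −0.42. Whether the differences from the mutant move as well was not tested.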

How the results depend on the processing

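With RLE factors, no filter, DESeq2, the fit of 12 libraries and library totals, the counts of genes higher and of genes lower at 14 DAP, at any size and beyond 2-fold, stayed within 1.5 times those reported. Library totals moved their split, with 3058 higher and 6052 lower by more than 2-fold. The stricter filter left 17913 genes and called 2730 higher and 2783 lower beyond 2-fold, fewer because fewer were tested, and glmTreat called 3340 and 3244. Without each library in turn, 9776 to 9891 genes were higher and 9782 to 9911 lower. Same-numbered libraries did not deviate together (correlations of 0.0201, −0.0246 and 0.04 for numbers 1, 2 and 3), which cannot show whether they share a plant or a run. With a replicate block 9972 genes were higher and 10038 lower, and the sets that differ from the mutant numbered 6091 and 5796. The difference from the mutant split the other way by library totals, with 5657 higher and 6320 lower in wild type.

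Among the uncalled scarce genes the sign changed for orf101-a, atp4, cox1 and rps2B, and held in every alternative that tested it for orf105-c, at 0.22 by library totals and 0.239 to 1.003 without 1 library, and for orf126-c. By library totals the log2 fold change was −0.024 for orf101-a, −0.24 for cox1 and −0.10 for rps2B. Leaving out 1 library, it ranged from −0.053 to 0.71 for orf101-a, from −0.53 to 0.018 for atp4, from −0.11 to 0.36 for cox1 and from −0.14 to 0.44 for rps2B. rrn18 was also called lower without replicate 2 of 7 DAP (−0.22), and orf126-c by library totals (−0.86) and without replicate 3 of 14 DAP (−0.67). matK ranged from 3.42 to 4.55. The difference of the ENSRNA sums, −53.9 CPM, was −141.9 CPM by library totals and 1.44 CPM without the most abundant identifier. The cause of these shifts was not tested. The plastid sums and the ENSRNA settings were chosen after seeing the data. Plastid genes other than matK had too few counts for a test each.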

Other observations

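Genes with large stage changes stood next to each other in the deposited tables more often than their share. Tested nuclear models were taken in the row order of the tables, and whether rows follow the chromosomes was not checked. The nuclear models higher by more than 8-fold at 14 DAP were 849, or 3.49% of nuclear models tested. When a model was in this set, the next tested one was in it in 9.89% of cases, which made 84 neighbouring pairs, and the longest run was 7. Of models lower by more than 8-fold there were 572, or 2.35%, and the next was in the set in 7.52% of cases, with 43 pairs and a longest run of 4. Neighbouring models can be near-identical copies that share reads, and the part of shared reads in these runs was not tested.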
